A study of Homo sapiens with 6 samples.

Results

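Neural stem cells are recognised by a small set of genes, and 10 of these were followed here in human neural stem cells given X5050 or DMSO. The genes were named with earlier results of these data known, LIX1 among them, so its place in the set is no independent evidence of its change. Each was read from the array row annotated to its symbol alone, the brightest row where a gene had several. Of the 10 genes 9 had such a row (LIX1, NES, SOX1, SOX2, PAX6, VIM, PROM1, NR2E1 and MSI1), each exactly 1, among 19460 rows with 1 gene symbol. HMGA2, a chromatin architectural protein of young stem cells, was read only by a row that also carries another gene's symbol, so no value is given for it.

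The cells were neural stem cells of the line SA-01, made from human embryonic stem cells, at passage 14, in a medium of Neurobasal and D-MEM/F-12 with N-2 and B-27 supplements on polyornithine and laminin. The first group received X5050 at 100 µM, a compound that the series title calls an inhibitor of the neuronal gene repressor REST, and the other group received the solvent DMSO at 0.1%, in both cases from 5 h after plating for 24 h. Whether the wells with X5050 also held DMSO is not stated in the sources used here. Each group had 3 arrays, 1 from each of 3 independent cultures of this 1 line, and arrays with the same replicate number were taken as the same culture. The question was which stem cell markers held and which fell.

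LIX1 encodes a protein first described in the developing limb of the chick, and it is expressed in neural progenitors. The other markers have better known roles. SOX1, SOX2 and PAX6 are transcription factors that hold progenitors in the neural lineage, and NR2E1 (TLX) is an orphan nuclear receptor that supports self-renewal, above all in the forebrain. NES (nestin) and VIM (vimentin) are intermediate filament proteins of radial glia and of dividing precursors, PROM1 (CD133) is a membrane protein of apical protrusions, and MSI1 (Musashi-1) is an RNA-binding protein that controls translation in stem cells. When neural stem cells mature, these genes usually give way to neuronal or glial genes.

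LIX1 was the 1 gene of the 9 that changed past the threshold. Its log2 signal was 6.62, 5.95 and 6.11 with X5050 in cultures 1, 2 and 3, against 7.56, 7.75 and 7.50 with DMSO. All X5050 values lay below all DMSO values, and culture 2, which had the highest LIX1 signal with DMSO, had the lowest with X5050. LIX1 fell by 1.38 on the log2 scale (2.60-fold lower, paired SE 0.15, 95% interval -1.72 to -1.04, n = 3 cultures, limma adjusted p = 0.0177 with the replicate number as a block). It was the second largest fall (rank 2) among the 19460 rows tested. Without the replicate block the same change had a limma adjusted p of 0.172 and did not pass, and without culture 3 it had a paired limma adjusted p of 0.116. Changes are given on the log2 scale as X5050 minus DMSO, and the threshold was an adjusted p under 0.05 over all rows tested.

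The paired fit called 60 rows lower (0.308%) and 37 higher (0.19%) of all rows tested. Among the 9 markers 1 was called lower and 0 higher, counts that the choice of LIX1 partly fixed and from which nothing is read about the set. Without the block 0 of the 9 markers and 0% of all rows passed, while 2 of the 9 markers and 1824 of all rows (9.37%) had an unadjusted p under 0.05 there. With 3 cultures an exact sign-flip test of 1 gene cannot give a two-sided p below 0.25, and LIX1, NES, MSI1 and NR2E1 all had that value. In whole cultures, fewer cells that make a transcript and less of it per cell cannot be told apart.

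NES stood next to LIX1 in size of change but did not pass. Its log2 signal was 8.74, 8.66 and 8.86 with X5050 in cultures 1, 2 and 3, against 9.33, 9.08 and 9.11 with DMSO. The 2 groups did not overlap, and culture 1 was the highest of the DMSO arrays. The change was -0.42 (1.34-fold lower, paired SE 0.099, 95% interval -0.65 to -0.19), with a paired limma adjusted p of 0.113, against 0.341 when the block was left out. Its unadjusted 95% interval lay below 0, and LIX1 and NES were the 2 of 9 markers lower at an unadjusted p under 0.05 in the paired fit, against 7.48% of all rows. As with the calls, nothing is read from this count about the set.

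MSI1 read 8.20, 8.18 and 8.12 with X5050, against 8.35, 8.26 and 8.58 with DMSO in cultures 1, 2 and 3. Here too every X5050 value was below every DMSO value, with 8.20 the highest with X5050 and 8.26 the lowest with DMSO. The change was -0.23 (paired SE 0.10, 95% interval -0.47 to 0.01, paired limma adjusted p = 0.354) and -0.12 without culture 3. LIX1, NES and MSI1 were thus 3 of 9 markers with all X5050 values below all DMSO values, which 7.41% of all rows also showed, and 0 of 9 lay wholly above, against 7.51%. Counted by culture, 4 of 9 (these 3 and NR2E1) were lower in all 3 cultures, against 17.5% of all rows, and 0 were higher in all 3, against 18%. NR2E1, a dim row, entered this count with differences of -0.02, -0.08 and -0.08. The genes were named with earlier results of these data known, so nothing is read from these counts about the set.

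**Figure D1:**
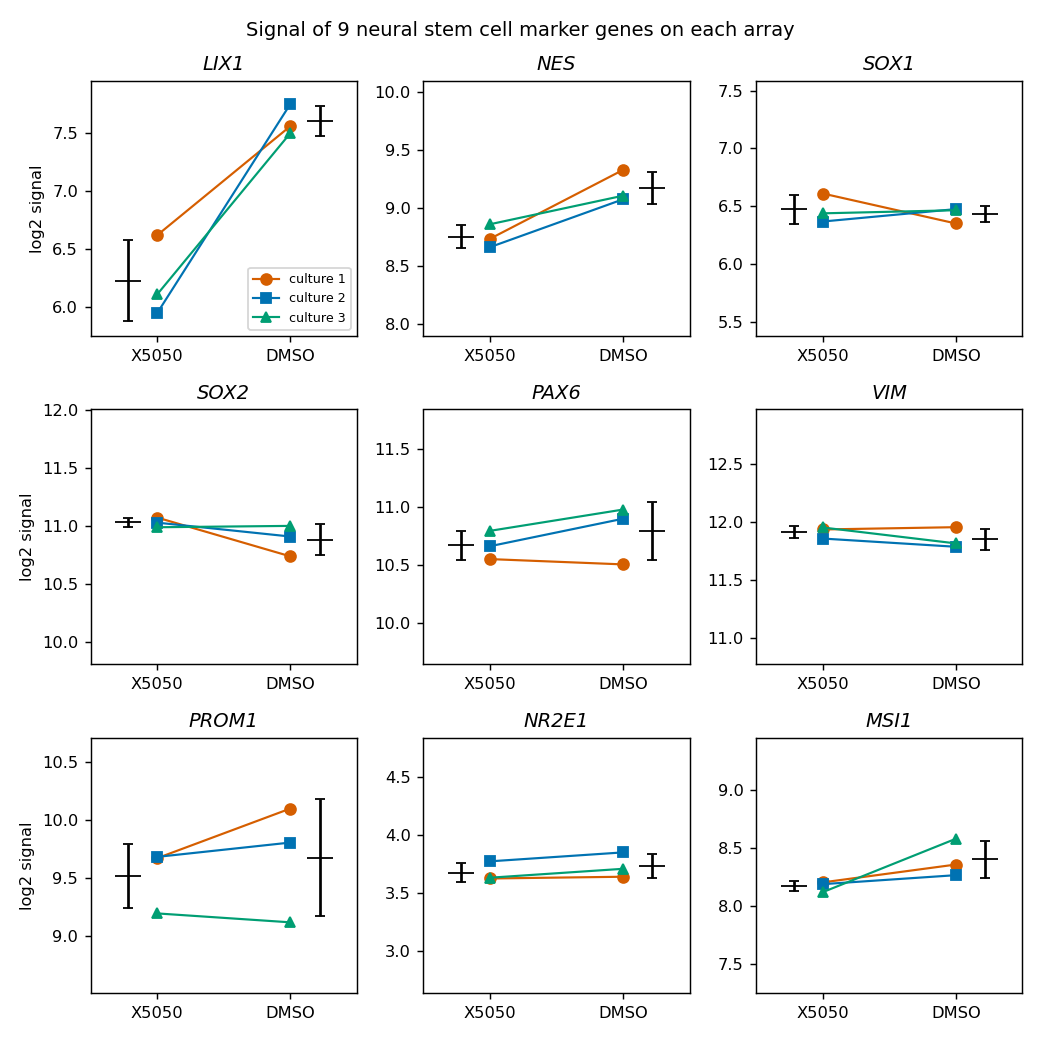
Log2 signal (y axis, each panel spanning the same number of log2 units) of the 9 markers with X5050 and with DMSO, with a line joining the 2 arrays of each culture and black bars for the mean and SD of 3 arrays. LIX1 runs from 5.95 to 6.62 with X5050, below its 7.50 to 7.75 with DMSO, while SOX2, VIM and SOX1 overlap between the groups.

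None of the 4 transcription factors passed the test. SOX2 read 11.07, 11.03 and 10.99 with X5050, against 10.74, 10.91 and 11.00 with DMSO, a change of 0.15 (95% interval -0.08 to 0.37, paired limma adjusted p = 0.578). It was 0.05 without culture 1 and 0.23 without culture 3. The groups overlapped through culture 3 alone, and the 3 X5050 values were closer together (SD 0.042) than the 3 DMSO values (SD 0.13). SOX1, its close relative, read 6.61, 6.37 and 6.44 with X5050, against 6.35, 6.48 and 6.47 with DMSO (0.04, 95% interval -0.19 to 0.27, paired limma adjusted p = 0.908). Its sign rested on culture 1, without which the change was -0.07, and it was 0.12 without culture 2 and 0.08 without culture 3.

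PAX6 read 10.55, 10.66 and 10.80 with X5050, against 10.51, 10.90 and 10.98 with DMSO, a change of -0.13 (95% interval -0.34 to 0.09, paired limma adjusted p = 0.636). Without culture 1 the change was -0.21, and without culture 2 it was -0.07. PAX6 was lower in cultures 2 and 3 and slightly higher in culture 1, and culture 1 had the lowest PAX6 signal under either treatment. NR2E1 was dim on every array, at 3.62, 3.77 and 3.63 with X5050, against 3.64, 3.85 and 3.71 with DMSO, while the lower quartile of the tested rows was between 4.96 and 5.03 on these arrays. Its change of -0.06 (95% interval -0.25 to 0.14) had a paired limma adjusted p of 0.843. No detection measure was used, so for a row this dim the interval bounds the signal and not the transcript.

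The remaining filament and membrane markers, VIM and PROM1, overlapped between the groups. VIM read 11.94, 11.86 and 11.95 with X5050, against 11.96, 11.79 and 11.81 with DMSO, a change of 0.06 (95% interval -0.14 to 0.27, paired limma adjusted p = 0.827). The change was 0.10 without culture 1 and 0.03 without culture 3. Vimentin and nestin assemble together into filaments, and whether their changes differed was not tested. PROM1 read 9.67, 9.68 and 9.19 with X5050, against 10.10, 9.81 and 9.12 with DMSO, a change of -0.16 (95% interval -0.42 to 0.10, paired limma adjusted p = 0.604). The difference was -0.43 in culture 1, -0.12 in culture 2 and 0.08 in culture 3, and the mean was -0.02 without culture 1 and -0.28 without culture 3.

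**Figure D2:**
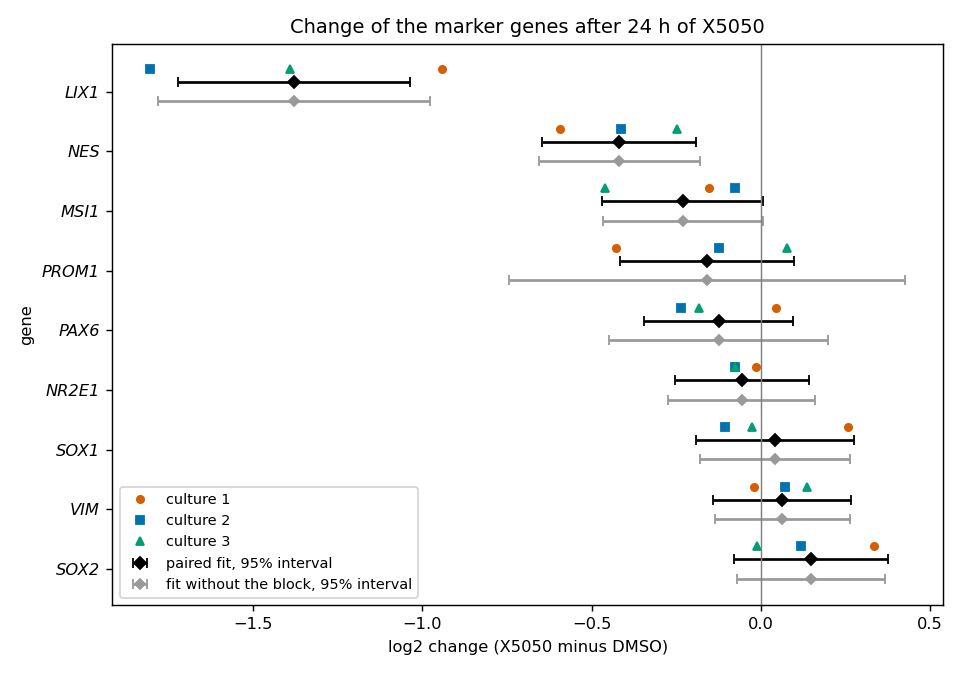
Log2 change with X5050 relative to DMSO (x axis) for each marker (y axis), with the 3 within-culture differences as coloured symbols and the 95% interval of the limma fit with the replicate block (black) and without it (grey). The LIX1 interval in the paired fit runs from -1.72 to -1.04, that of NES from -0.65 to -0.19, and those of the other 7 markers include 0.

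The intervals set what the 3 cultures could show. For the 7 markers other than LIX1 and NES the 95% intervals of the paired fit included 0 but had unlike ends. The lower ends ran from -0.08 (SOX2) to -0.47 (MSI1) and the upper ends from 0.01 (MSI1) to 0.37 (SOX2). Each interval bounds the change of its own row only, and changes inside it were not resolved. The median change of the 9 markers was -0.13, with 6 of 9 below 0, beside a median of 0.009 and 47.3% below 0 over all rows tested. The choice of the genes bears on these values too, and nothing is read from them about the set. The median size of a change over all rows was 0.093, and 95% of rows differed by less than 0.36 in either direction. LIX1 and NES were beyond that size, and the other 7 were within it. Whether LIX1 changed by more than the other markers was not tested.

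The 3 DMSO cultures differed among themselves, and the size of that spread was not the same for each gene. The LIX1 signal spanned 0.25 between the highest and the lowest DMSO culture and that of NES 0.25, in both cases less than the change with X5050, and the median span over all rows was 0.25. PROM1 spanned 0.98, from 9.12 in culture 3 to 10.10 in culture 1, and PAX6 spanned 0.47, both more than their changes. Within X5050 the 3 LIX1 values were wider apart (SD 0.35) than within DMSO (SD 0.13), and the within-culture differences of LIX1 were -0.94, -1.80 and -1.39. Those of NES ran in another order, -0.59, -0.41 and -0.25, so the culture with the smallest difference in LIX1 had the largest in NES.

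**Figure D3:**
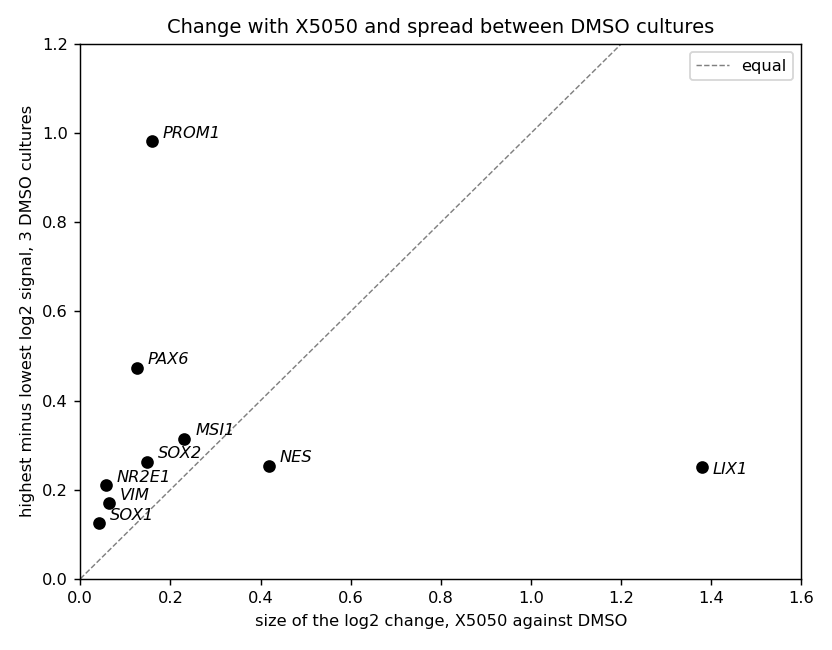
Size of the log2 change with X5050 (x axis) against the difference between the highest and the lowest of the 3 DMSO cultures (y axis, log2 units) for the 9 markers, with a dashed line where both are equal. LIX1 (1.38 against 0.25) and NES (0.42 against 0.25) lie below the line and the other 7 markers above it.

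Most of the markers were bright in these cells, as were some genes of other cell types. With DMSO, counting tested rows of an array from the dimmest, VIM lay at percentile 99.7, SOX2 at 98.4, PAX6 at 98.2, PROM1 at 93.0, NES at 89.7, MSI1 at 82.1 and LIX1 at 72.7. SOX1 lay at percentile 53.8 and NR2E1 at 8.30. LIX1 lay at percentile 49.0 and NES at 85.8 with X5050. Rows differ in probe affinity, so these positions place a gene on its array and do not rank one marker's transcript against another's. Among 29 measured genes of 30 in a list of other radial glia and neural stem cell genes 26 were above the median position with DMSO, and the forebrain factor LHX2, like NR2E1, was below the lower quartile (percentile 22.5). Of 16 mesenchymal markers 15 were above the median position too, so a place above the median does not single out neural stem cells. Of 14 neuron markers 7 were above it, the share that any rows would show. They ran from NEUROD6 at percentile 9.80 to DCX at 93.3 and STMN2 at 99.9. Of 8 oligodendrocyte lineage markers 1 was above the median position.

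That list gave a wider view of stem cell identity. Of its 29 genes 0 rose and 0 fell in the paired fit, 17 were below 0 and 12 above, and the median change was -0.01, against -0.13 for the 9 markers and 0.009 for all rows. The genes with the smallest p were HOPX, a homeodomain protein of outer radial glia (-0.39, 95% interval -0.66 to -0.13), and PTPRZ1, a receptor phosphatase of radial glia (0.28, 95% interval 0.08 to 0.48). Next came ZBTB16 (PLZF), a transcription factor of early rosette cells (0.22), and PLAGL1, a zinc finger factor (-0.25). Their adjusted p values in the paired limma fit were from 0.167 to 0.331.

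None of the relatives of the markers passed the test. LIX1L, a relative of LIX1, read 8.10, 7.97 and 8.32 with X5050, against 8.24, 8.18 and 8.25 with DMSO, a change of -0.09 (95% interval -0.31 to 0.13, paired limma adjusted p = 0.738). SOX3, the other member of the SOXB1 group with SOX1 and SOX2, stood at -0.10 (95% interval -0.37 to 0.16). MSI2, the relative of MSI1, stood at 0.14 (95% interval -0.06 to 0.35), on the other side of 0 from MSI1 in all 3 cultures, though neither passed. HMGA1, the relative of HMGA2, stood at -0.15 on its brightest row and at -0.14 and -0.22 on the other 2 rows. SOX14 (-0.21) and PAX2 (-0.14), a relative of PAX6, completed the 4 genes with the smallest p of a list of 10 relatives, of which 0 passed and 6 were below 0 (median -0.05).

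The 14 other intermediate filament and lamin genes were set beside NES and VIM. Of these 0 passed, 9 were below 0, against 47.3% of all rows, and 7 were lower in all 3 cultures, against 17.5%. Their median was -0.11, and as the list was chosen with earlier results known, nothing is read from these counts. The smallest p values belonged to the neurofilament heavy chain NEFH (-0.31), the lens filament protein BFSP1 (-0.27) and the B-type lamins of the nuclear envelope LMNB2 (-0.23) and LMNB1 (-0.22), with adjusted p from 0.254 to 0.306 in the paired limma fit. In the list of 10 genes of the let-7 and oncofetal programme to which HMGA2 belongs, 0 passed, 4 were below 0 and the median was 0.005. PLAG1, a zinc finger factor, had the smallest p there (0.48, 95% interval 0.28 to 0.68, paired limma adjusted p = 0.0641), followed by the DNA-binding protein ARID3B (-0.36), the microRNA-processing enzyme DICER1 (0.15) and LIN28B (0.13), which blocks let-7 maturation.

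Markers of the cell types that stem cells give rise to, or that share these markers, were read on the same arrays. Of 14 measured neuron markers 0 passed and the median was -0.05, with MYT1L (0.30), INA (-0.17), MAPT (-0.15) and ELAVL4 (-0.19) having the smallest p. Of 10 astrocyte markers 1 fell, against 0.308% of all rows, and the median was 0.03. These lists too were chosen with earlier results of these data known, so nothing is read from the count. The gene that fell was the gap junction protein GJA1 (-0.61, 95% interval -0.83 to -0.40, paired limma adjusted p = 0.0444, and 0.667 without the block). CD44 (-0.24), S100B (0.20) and ALDH1L1 (0.19) followed.

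Most mesenchymal markers had a change below 0. Nestin and vimentin are also made by mesenchymal cells. Of 16 mesenchymal markers 14 were below 0, against 47.3% of all rows, and 8 were lower in all 3 cultures, against 17.5%. In the paired fit 1 fell, against 0.308%, the matrix protein LUM (-1.09, paired limma adjusted p = 0.0386, and 0.629 without the block). The list was chosen with earlier results of these data known, so nothing is read from these counts. TAGLN (-0.89), PRRX1 (-0.35) and POSTN (-0.87) had the next smallest p. The median of the list was -0.35, -0.16 and -0.07 in cultures 1, 2 and 3. The mean log2 signal over the 16 genes ranged from 6.73 to 7.85 with X5050 and from 6.89 to 8.31 with DMSO, culture 1 being the highest in both, and FAP alone lay below the lower quartile position. Whether mesenchymal cells were present in the cultures, or had a part in the NES and LIX1 values, was not tested.

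**Figure D4:**
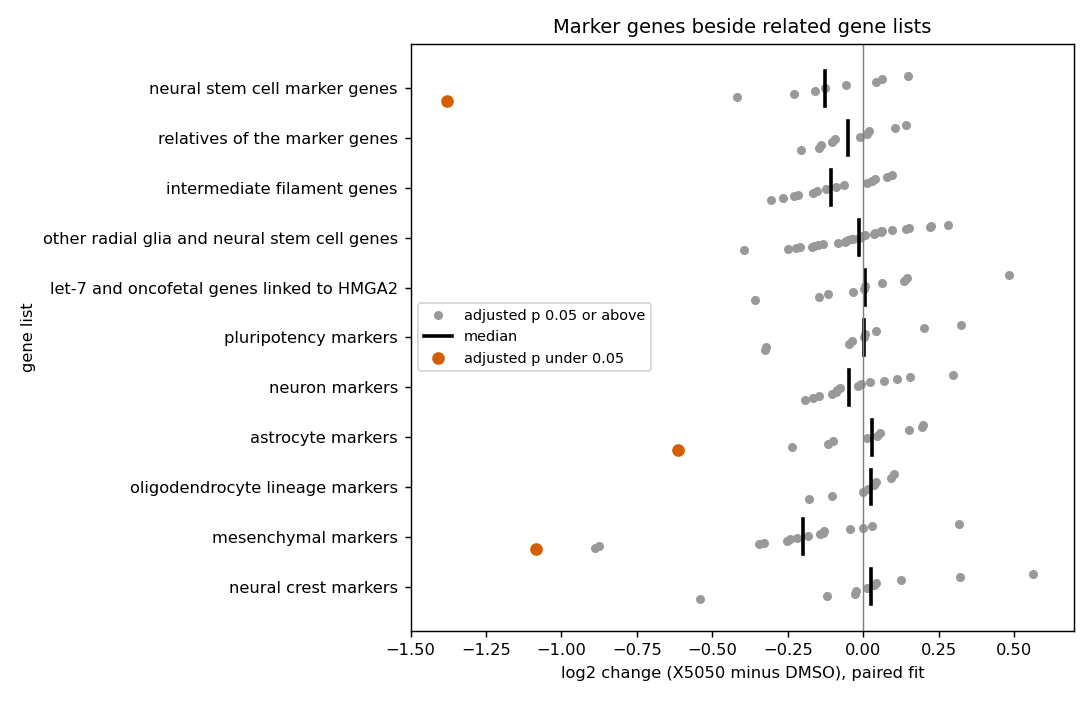
Log2 change with X5050 relative to DMSO in the paired fit (x axis) for each gene of the marker set and of 10 other lists (y axis), with orange points for adjusted p under 0.05, grey points for the rest and a bar for each median. LIX1 (-1.38), GJA1 (-0.61) and LUM (-1.09) are the 3 orange points, and the list of other radial glia and neural stem cell genes is centred near 0.

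Genes that moved most like LIX1 were looked for by the Euclidean distance between their 3 within-culture differences and those of LIX1. The 5 closest were the transketolase-like gene TKTL1 (distance 0.37), the histone gene H2BC14 (0.48), the sterol enzymes HMGCS1 (0.49) and NSDHL (0.53), and the secreted protease inhibitor PI15 (0.61). Their changes, from -1.23 to -1.16, were fixed largely by this choice and are given as a description. The distances rest on 3 cultures. For NES the 5 closest were the actin-associated PDLIM1 (0.050) and PALLD (0.080), the fucosidase FUCA2 (0.058), the termination factor TTF2 (0.081) and the lipid transporter MFSD2A (0.081), with changes from -0.45 to -0.39, near that of NES itself.

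REST, the stated target of the compound, read 8.39, 8.22 and 8.33 with X5050, against 8.48, 8.37 and 8.25 with DMSO. As REST acts by binding DNA near genes, the start sites of the markers were searched for its binding motif. The 250 bases before the RefSeq start site (build GRCh38.p14) are shown for NES, which was lower without passing, and for SOX2, which was not lower, with matched bases in capitals. NES lies at chr1:156677408-156677657 on the minus strand and SOX2 at chr3:181711675-181711924 on the plus strand, both read 5′ to 3′ along the gene.
NES: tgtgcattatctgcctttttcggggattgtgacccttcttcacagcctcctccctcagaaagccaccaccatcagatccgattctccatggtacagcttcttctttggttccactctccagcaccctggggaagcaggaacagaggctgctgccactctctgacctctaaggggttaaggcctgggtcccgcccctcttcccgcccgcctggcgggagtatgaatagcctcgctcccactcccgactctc
SOX2: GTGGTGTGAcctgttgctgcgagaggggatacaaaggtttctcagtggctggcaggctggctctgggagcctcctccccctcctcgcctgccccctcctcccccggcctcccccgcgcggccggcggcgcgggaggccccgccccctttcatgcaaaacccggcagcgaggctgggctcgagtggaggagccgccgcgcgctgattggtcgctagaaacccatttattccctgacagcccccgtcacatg
The motifs were the left part of the REST element (TTCAGCACC), its right part (GGACAG) and a sterol regulatory element (TCACNCCAC, where N is any base), on both strands. None of these was found before NES, and the capitals in SOX2 mark 1 match to the sterol element on the opposite strand. RefSeq windows were matched for 7 of the markers with 19 start sites, and LIX1, MSI1 and HMGA2 were not searched. The left part was found at 0 of these 19, against 0.288% of 35116 start sites of all genes, the right part at 5 (in PAX6, PROM1 and SOX1), against 17.2%, and the sterol element at 1, against 0.883%. Start sites of 1 gene are not independent, and PAX6 has 9 of the 19 and PROM1 4. By gene the right part was found in 3 of 7, and no excess is read from these counts. A match is only a description of the letters, and a missing match says nothing of the factor.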

How the data were processed

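RNA of 6 samples was hybridised to 1 Affymetrix array each. The deposited values are log2 signals per row (transcript cluster), made with RMA and Partek per the submitters' processing notes. Their versions and the genome build behind the annotation are not given here. RMA subtracts background, gives all arrays 1 distribution and combines a row's probes. Small signals can still understate change. Array medians lay between 5.68 and 5.75 and correlations between arrays between 0.984 and 0.993. No background or detection measure was used, and the number of arrays limits the precision.

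Of 33297 rows, 19460 carried 1 gene symbol (18417 symbols) in the platform annotation and were tested, 1754 carried several and 12083 were not in it. The comparison of X5050 with DMSO used limma 3.58.1 in R 4.3.3 (lmFit and eBayes, two-sided, Benjamini-Hochberg adjustment over all tested rows), with treatment and replicate number as terms, leaving 2 residual degrees of freedom before pooling over genes. The fit without the block was an alternative. The design text gives 3 independent cultures. The replicate numbers were used as pairs on that ground. After each group's mean was subtracted, X5050 and DMSO arrays with 1 number correlated at 0.365, 0.297 and 0.255. The other pairs lay between -0.236 and -0.052. Subtracting a mean of 3 arrays forces negative values among the other pairs when those with 1 number are positive. The contrast with the other pairs is thus no further evidence of the pairing.

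The markers and gene lists were chosen with earlier results of these data known. Named genes were all markers, from each of 10 other lists those past the threshold and the 4 with the smallest p, LIX1L, SOX3, MSI2, HMGA1 and REST, and the 5 genes closest to LIX1 and to NES in their within-culture differences, skipping unnamed loci. LHX2, FAP, STMN2, DCX, NEUROD6 and the dimmer HMGA1 rows were singled out once their values were known. The fit was tested on simulated data with the same noise level for all rows and changes larger than that of any marker but LIX1. That test does not show how well smaller changes are found. Figures used matplotlib 3.10.9 under Python 3.11.15.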

Additional observations from a re-analysis of the deposited data

How the results depend on the processing

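Of 80 member values under 9 alternatives 77 kept their direction and their side of the threshold. Most of these values belong to markers that passed under no setting. LIX1 was lower under all 9 (-1.60 to -1.17, adjusted p from 0.000161 to 0.172) and lost its call without the replicate block (-1.38, adjusted p = 0.172) and without culture 3 (-1.37, adjusted p = 0.116). With 1 culture left out LIX1 ranged from -1.60 to -1.17, and the count of markers that fell was 0 or 1. It was 0 without the replicate block. NES was lower under all 9, with adjusted p from 0.0576 to 0.341, and SOX1 turned to -0.067 without culture 1. The steady direction of LIX1 and NES adds little, as all 3 within-culture differences of each were below 0. Leaving out the block or the dim rows, a variance trend and the median of a gene's rows do not alter a marker's change at all. Against 60 lower and 37 higher rows, the paired fit gave 0 to 233 lower and 0 to 113 higher with 1 culture left out (0 in each direction without culture 3, where 1839 had an unadjusted p under 0.05). The fit without the replicate block gave 0 and 0, with 1824 at an unadjusted p under 0.05. Another quantile normalization gave 33 and 18, a variance trend 147 and 127, and leaving out dim rows 66 higher. The NR2E1 row is dim and had no value under the last of these. The cause of these differences between settings was not tested.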

Other observations

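Markers of cell types further from neural stem cells were read as well. Of 9 measured pluripotency markers 0 passed, and the median change was 0.003. DNMT3B, a DNA methyltransferase of embryonic cells, stood at -0.32 (95% interval -0.54 to -0.11), DPPA4 at -0.32, PRDM14 at 0.20 and GDF3 at 0.32. Of 8 oligodendrocyte lineage markers 0 passed and the median was 0.03, with PDGFRA at -0.18, OLIG1 at 0.10, GPR17 at -0.10 and OLIG2 at 0.09. Of 10 neural crest markers 0 passed and the median was 0.02. The smallest p values belonged to TFAP2B at 0.56 (95% interval 0.31 to 0.82, paired limma adjusted p = 0.0764) and SNAI2, which mesenchymal cells also express, at -0.54, then FOXD3 at 0.32 and NGFR at -0.12.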
